A study of Mus musculus with 8 samples.

Results

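The keratin and keratin-associated genes were taken as the protein-coding genes whose mm10 RefSeq symbol starts with Krtap, or with Krt followed by a digit. There were 109 such genes, 53 Krt and 56 Krtap, of 21887 protein-coding genes in the table. They were described by H3K9me2, a repressive histone mark read as the share of a gene span covered by peaks, and by ATAC-seq peaks, which mark accessible chromatin. Spans ran from 5 kb before a gene to 5 kb behind it, and members less than 500 kb apart were joined into a cluster.

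The cells were regulatory T cells (Treg) sorted from tumours, or from the spleen, of C57BL/6 mice aged 8 to 12 weeks. H3K9me2 was profiled in 3 tumour Treg libraries of genotype JMJD1CTregcKO (cKO), in which JMJD1C is deleted in Treg only, and in 3 tumour Treg libraries of genotype JMJD1CWT (WT). ATAC-seq was run on 1 tumour and 1 spleen Treg library, both of genotype JMJD1CWT. The labels name neither the Cre line, nor the tumour, nor whether animals were pooled, and nothing says that replicates came from separate animals, so p-values measure the spread between these libraries only.

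JMJD1C is a Jumonji-domain protein of a family of demethylases that remove methyl groups from H3K9. Keratins form the intermediate filaments of epithelial cells from pairs of a type I and a type II chain. Keratin-associated proteins are small proteins that crosslink the hair keratins in the hair shaft, and most of their genes lack introns. Neither family is known as a marker of T cells, and both lie in dense clusters of related copies.

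The H3K9me2 libraries held 24774509 to 30313851 tags, the tumour ATAC library 11293674 and the spleen ATAC library 11068821. Peaks covered 5.36, 4.45 and 3.63% of the genome without Y in cKO replicates 1, 2 and 3, and 3.89, 4.10 and 3.39% in WT replicates 1, 2 and 3, in lists of 109589 to 178201 peaks. The cKO replicate 1 had the longest list and the fewest tags. One knockout number stands in the headers of both cKO replicate 1 and cKO replicate 3, which may therefore share a source, and the name prefixes of the cKO and WT libraries have none in common, so genotype and any such batch cannot be told apart. Of 8 Treg markers, 7 were touched by an ATAC peak within 5 kb in both tissues, Foxp3 and Il2ra among them. Over all genes the share touched was 59.9% in tumour and 47.1% in spleen. Of 10 epithelial markers, Cdh1, Grhl2 and Esrp1 were touched in both tissues and the other 7 in neither, 4 of which are keratins described here (Krt5, Krt8, Krt14 and Krt18). Among 7 melanocyte markers 3 were touched in each tissue, among 7 fibroblast and endothelial markers 2 in tumour and 4 in spleen, among 6 myeloid markers 4 in tumour and 1 in spleen, among 5 B cell markers 3 in tumour and 2 in spleen, and among 5 CD8 T and NK cell markers 1 in each tissue. Whether other cells contributed to the results below was not tested, and in such bulk samples fewer cells with a mark and less of it per cell cannot be told apart.

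The promoters of these genes shared features that the choice of genes did not use. A RefSeq promoter of build GRCm38.p6, 250 bases before to 50 bases after the first listed start, was found for 87 members. The letters TATAAA, searched on both strands, were in 42 of 51 Krtap promoters (82.4%), in 19 of 36 Krt promoters (52.8%) and in 13.3% of all 17492 promoters. With TATAAA on the gene's own strand and its first base 20 to 40 bases before the start, the shares were 60.8% of Krtap promoters, 36.1% of Krt promoters and 2.84% of all promoters. The median promoter held 2 CpG in Krtap genes, 5 in Krt genes and 13 over all promoters, and the median GC content was 44.7% over members and 56.3% over all. A match describes the letters and is not a shown binding site.

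Promoters of 6 genes that the values below turn on are shown, 5′ to 3′ on the gene's own strand, with each TATAAA in capitals. Krt26 and Krtap9-3 had more H3K9me2 coverage in every cKO library than in any WT library, and Krtap2-4 had less. Krtap3-1 had the highest mean coverage on chromosome 11 and Krtap6-3 the highest on chromosome 16. Krt10 had H3K9me2 in every library and an ATAC peak in tumour Treg.
Krt26, chr11:99337916-99338215, minus strand: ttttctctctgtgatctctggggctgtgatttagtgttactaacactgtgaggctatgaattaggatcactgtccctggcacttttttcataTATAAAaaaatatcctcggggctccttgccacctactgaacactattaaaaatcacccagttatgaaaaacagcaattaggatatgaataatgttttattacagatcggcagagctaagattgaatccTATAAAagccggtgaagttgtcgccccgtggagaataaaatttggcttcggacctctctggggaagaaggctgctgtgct
Krt10, chr11:99389315-99389614, minus strand: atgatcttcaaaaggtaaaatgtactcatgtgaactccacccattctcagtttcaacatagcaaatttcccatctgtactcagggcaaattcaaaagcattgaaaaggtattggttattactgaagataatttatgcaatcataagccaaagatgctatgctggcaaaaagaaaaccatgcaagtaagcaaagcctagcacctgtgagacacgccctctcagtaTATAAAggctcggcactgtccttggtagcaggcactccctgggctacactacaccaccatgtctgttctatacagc
Krtap9-3, chr11:99598057-99598356, minus strand: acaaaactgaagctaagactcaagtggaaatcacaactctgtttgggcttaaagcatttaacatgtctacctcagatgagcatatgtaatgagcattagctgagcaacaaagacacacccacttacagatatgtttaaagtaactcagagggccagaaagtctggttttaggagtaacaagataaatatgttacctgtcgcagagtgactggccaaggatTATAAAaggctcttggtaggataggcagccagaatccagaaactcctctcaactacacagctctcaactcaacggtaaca
Krtap2-4, chr11:99614797-99615096, minus strand: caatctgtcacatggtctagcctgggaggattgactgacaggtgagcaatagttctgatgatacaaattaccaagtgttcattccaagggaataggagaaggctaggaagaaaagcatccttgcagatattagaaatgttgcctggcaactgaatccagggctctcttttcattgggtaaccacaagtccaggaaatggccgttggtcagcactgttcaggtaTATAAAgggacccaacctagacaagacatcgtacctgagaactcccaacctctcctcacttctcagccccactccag
Krtap3-1, chr11:99566581-99566880, minus strand: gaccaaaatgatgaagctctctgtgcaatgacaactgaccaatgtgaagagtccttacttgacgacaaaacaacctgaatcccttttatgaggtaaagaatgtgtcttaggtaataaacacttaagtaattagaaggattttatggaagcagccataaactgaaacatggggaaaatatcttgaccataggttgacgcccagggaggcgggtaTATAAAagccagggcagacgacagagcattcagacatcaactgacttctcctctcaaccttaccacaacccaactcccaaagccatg
Krtap6-3, chr16:89083774-89084073, plus strand: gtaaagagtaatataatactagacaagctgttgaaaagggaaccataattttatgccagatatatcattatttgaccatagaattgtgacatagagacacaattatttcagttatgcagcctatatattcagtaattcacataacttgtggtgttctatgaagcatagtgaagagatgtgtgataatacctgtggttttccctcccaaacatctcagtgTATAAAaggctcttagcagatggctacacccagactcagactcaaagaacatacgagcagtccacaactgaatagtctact
In all 6, a TATAAA began between 26 bases (Krt10) and 37 bases (Krtap3-1) before the start. No H3K9me2 peak of any library touched 5 of these promoters, and that of Krtap3-1 was touched in WT replicates 1 and 2 and in no cKO library.

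The members formed 6 chains. The chromosome 11 cluster (chr11:99232761-100269951) held 50 genes, the type I keratins at both ends and 23 Krtap genes between them. The chromosome 15 cluster (chr15:101348315-102032026) held 26 keratin genes, the type II keratins with the type I gene Krt18 at one end. The chromosome 16 cluster (chr16:88610709-89571183) held 24 Krtap genes and no keratin. The Krtap5 genes on chromosome 7 (chr7:142174532-142304503) numbered 5, chromosome 10 held 3 Krtap genes (chr10:77720586-77837251), and Krtap28-13 stood alone on chromosome 1 (chr1:83060930-83061921). Spans of neighbours overlap: 36 of the 50 genes on chromosome 11 and 21 of the 26 on chromosome 15 share bases with another member, so genes are not independent, and clusters were measured over merged spans.

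H3K9me2 coverage of the merged spans was above the genome-wide level on chromosome 11 and below it on chromosome 16 in every library. With the lists as deposited, the genotypes overlapped in each of the 5 clusters compared. The chromosome 11 spans were covered over 7.94, 6.42 and 4.61% in cKO replicates 1, 2 and 3 and over 4.45, 5.61 and 4.58% in WT replicates 1, 2 and 3. The highest values were those of cKO replicates 1 and 2, and cKO replicate 3 lay among the WT libraries. The mean was 6.32 ± 1.67% in cKO and 4.88 ± 0.636% in WT (SD, n = 3 each; exact two-sided permutation p = 0.2). Divided by the genome-wide coverage of each library, it was 1.40 ± 0.113 in cKO and 1.29 ± 0.125 in WT. The difference of 1.44 points of cKO minus WT came down to 0.449 points when all lists were cut to the same length. With the stronger 50% of each list it was 0.213 points. With spans of 0 kb, WT replicate 1 had 1.79%, below its genome-wide 3.89%, and the other libraries stayed above theirs.

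The chromosome 16 Krtap spans were below the genome-wide coverage in all 6 libraries. Over the whole stretch, with the sequence between the spans, this did not hold. There cKO replicate 1 had 5.65%, against 5.36% genome-wide, and WT replicates 1 and 2 had 4.07 and 4.37%, against 3.89 and 4.10%. Only cKO replicates 2 and 3 and WT replicate 3 stayed below. The Krtap spans were covered over 4.81, 1.60 and 1.75% in cKO and over 2.58, 2.56 and 1.55% in WT. The high cKO value came from replicate 1 alone, and the other cKO values lay within the WT range. The mean was 2.72 ± 1.81% in cKO and 2.23 ± 0.587% in WT (SD, n = 3 each; exact two-sided permutation p = 0.8), and without cKO replicate 1 the difference of cKO minus WT turned to -0.560 points.

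The type II keratin cluster on chromosome 15 was covered over 3.54, 5.22 and 3.23% in cKO and over 2.91, 4.94 and 3.16% in WT. Replicate 2 of each genotype was the highest, and the genotypes overlapped. The mean was 3.996 ± 1.07% in cKO and 3.67 ± 1.10% in WT (SD, n = 3 each; exact two-sided permutation p = 0.5). The sign of this difference turned under several settings given at the end.

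The small Krtap clusters spread widely. The Krtap5 spans on chromosome 7 were covered over 10.2, 9.90 and 5.78% in cKO and over 9.90, 7.07 and 0% in WT (exact two-sided permutation p = 0.6, n = 3 each). WT replicate 3 had no peak there, while the other 5 libraries were above their genome-wide coverage. The 3 genes on chromosome 10 had 13.4, 1.57 and 3.15% in cKO and 15.6, 9.08 and 5.20% in WT (exact two-sided permutation p = 0.5, n = 3 each). The smallest p that 3 against 3 can give is 0.1, so none of the 5 cluster comparisons could have passed 0.05. With the stronger 50% of each list, chromosome 10 no longer overlapped, with 1.99, 1.57 and 0% in cKO and 4.44, 5.93 and 2.05% in WT (exact two-sided permutation p = 0.1, n = 3 each). These values rest on 1, 1 and 0 peaks in cKO replicates 1, 2 and 3 and on 2, 2 and 1 peaks in WT replicates 1, 2 and 3. The gap between the groups, from 1.987% in cKO replicate 1 to 2.047% in WT replicate 3, sets 1 peak against 1 peak. With equal-length lists, the chromosome 7 difference of 2.97 points of cKO minus WT came down to 0.030 points.

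**Figure D1:**
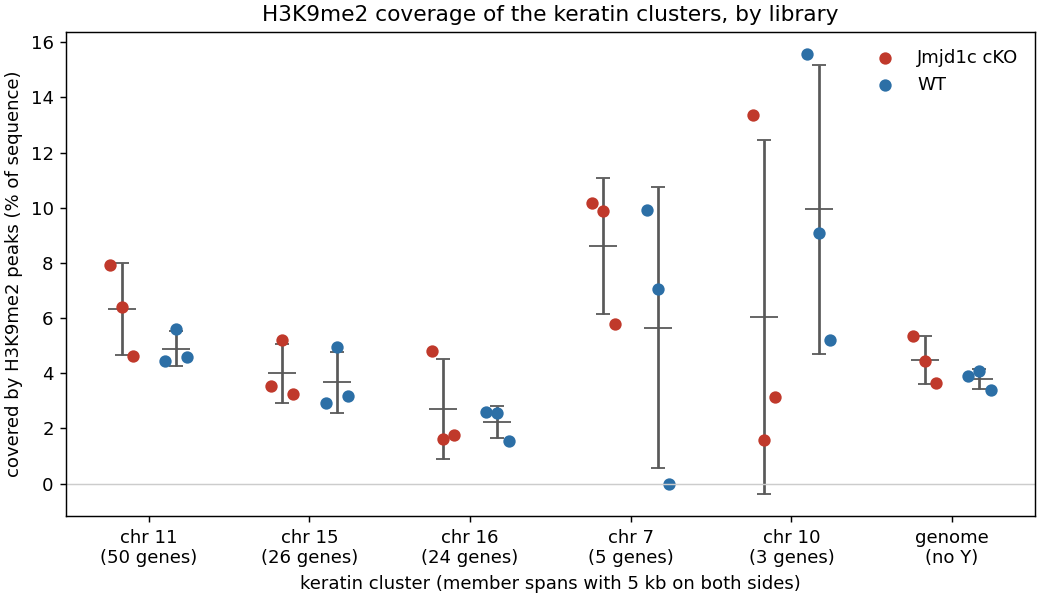
H3K9me2 coverage of each keratin cluster (percent of the merged gene spans with 5 kb on both sides) in each library, cKO left of WT, with the genome without Y at the right. Points are libraries and bars give the mean ± SD of 3 libraries; the chromosome 11 points all lie at 4.45% or more and 5 of the 6 chromosome 16 points at 2.58% or less, with the genotypes overlapping in each cluster.

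The peaks themselves differed in kind between the clusters, and did so in every library that had peaks there. The score of a peak (tags of its own library) and its fold over the surrounding 10 kb are the authors' own values, used here to describe peaks within a list. On chromosome 16 the median score of a library lay between 13.5 and 16.5 and the median local fold between 2.11 and 2.38. On chromosome 15 the median score lay between 5.5 and 6 and the median local fold between 3.195 and 4.38. All peaks of a library together had median scores of 8 to 9.5 and folds of 2.5 to 2.75, and the chromosome 11 spans, with 8 to 10.5 and 2.35 to 2.9, were close to these.

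All 43 peaks in the chromosome 16 spans, over the 6 libraries, ranked in the stronger 50% of their lists by score. Of 172 peaks in the chromosome 15 spans 8 did, and of 263 in the chromosome 11 spans 135 did. With the stronger 50% of each list alone, chromosome 15 coverage fell to a mean of 0.224% in cKO and 0.189% in WT, while the chromosome 16 means stayed at 2.72% in cKO and 2.23% in WT. The stretches between the member spans were alike: their peaks had median scores of 11.75 to 14.5 on chromosome 16 and of 6 to 7.75 on chromosome 15. The contrast was noticed in the values, so it carries no test.

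**Figure D2:**
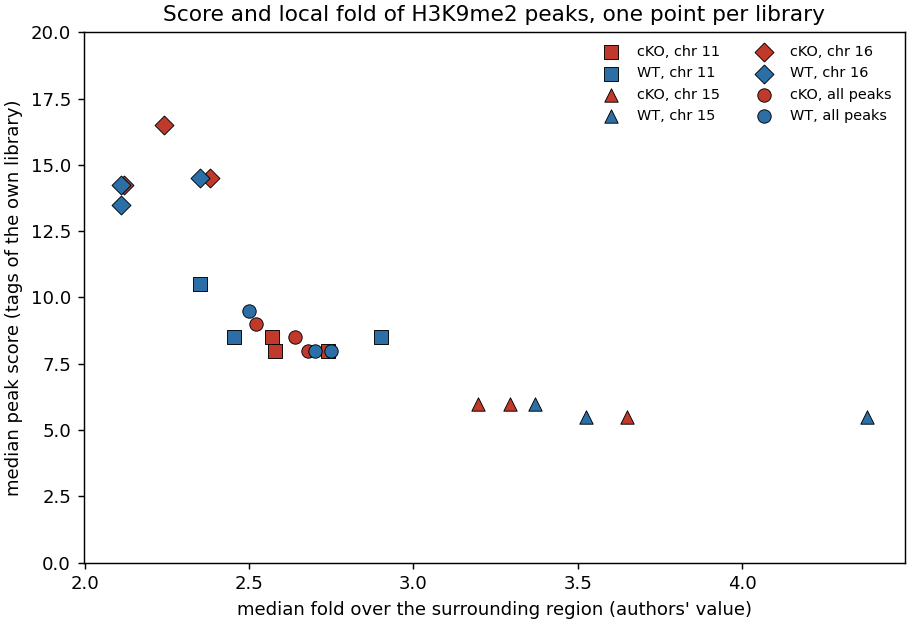
Median peak score (tags of the own library, vertical) against the median fold over the surrounding region (horizontal, authors' values), one point for each library (cKO red, WT blue) and set of peaks. The chromosome 16 points sit at scores of 13.5 or more and folds of 2.38 or less, the chromosome 15 points at scores of 6 or less and folds of 3.195 or more, and chromosome 11 near all peaks.

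The Krtap gene bodies of chromosomes 16 and 10, which are short, held no H3K9me2 peak. Genome-wide coverage was 3.39 to 5.36% in a library, and whether 0 is low for so little sequence was not tested. On chromosome 16 the 24 gene bodies sum to 16.4 kb, and on chromosome 10 the 3 bodies sum to 2.9 kb; both had 0 kb covered in all 6 libraries, so the coverage given for them lies in the 5 kb flanks. The chromosome 11 gene bodies, 207.1 kb in all, had 13.3, 15.5 and 8.65 kb covered in cKO and 3.71, 9.77 and 9.74 kb in WT. The lowest value, in WT replicate 1, lies apart from the other 5.

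**Figure D3:**
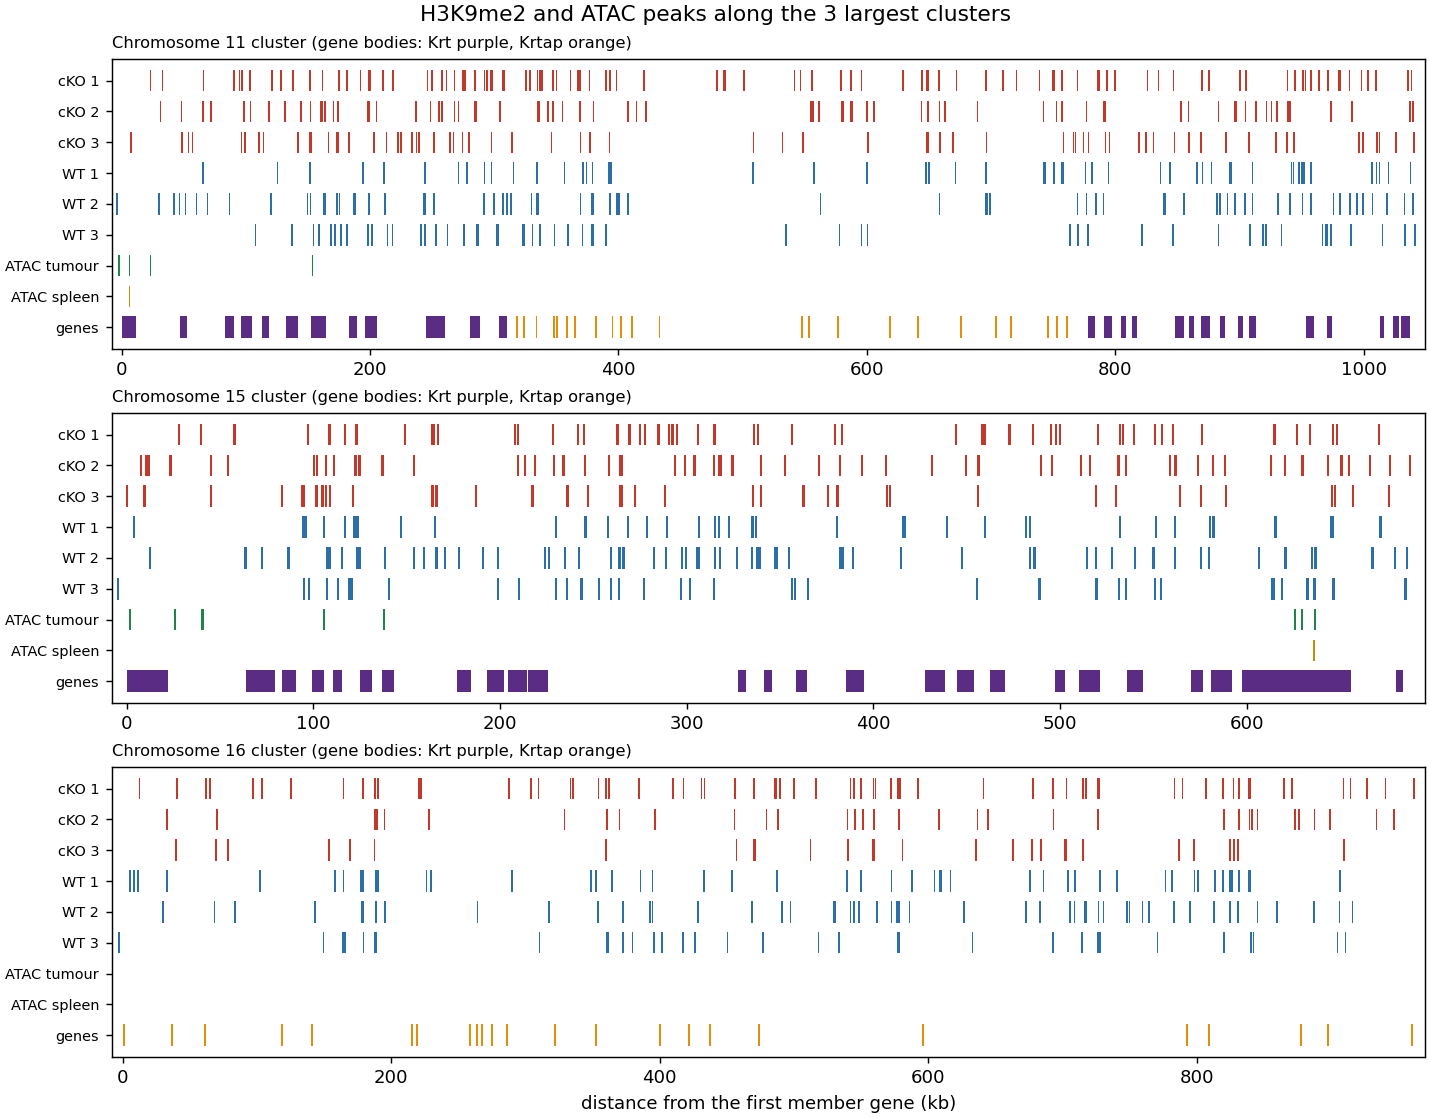
Deposited H3K9me2 and ATAC peaks along the 3 largest clusters, plotted by distance from the first member gene in kb, with cKO libraries above WT libraries, then ATAC, then gene bodies (Krt purple, Krtap orange). The whole chromosome 16 stretch holds 25 to 62 H3K9me2 peaks in a cKO library and 30 to 47 in a WT library, none of them in a Krtap gene body, and no ATAC peak of either tissue.

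Of the 109 genes, 15 (13.8%) had an H3K9me2 peak in their span in all 6 libraries, against 34.8% of all genes, and 14 of them were keratins. The 1 Krtap gene among them was Krtap2-4. At the other end, 5 genes (4.59%) had none in any library, against 6.66% of all genes, and these were all Krtap: Krtap4-6 and Krtap4-16 on chromosome 11 and Krtap13-1, Krtap19-1 and Krtap19-4 on chromosome 16. A longer span has more room for a peak, and none of these shares was matched for span length. The median span was 10.6 kb in the chromosome 16 Krtap cluster and 18.0 kb in the chromosome 15 keratin cluster. By covered length, the merged spans of all members were above the genome-wide coverage in all 6 libraries. The excess was small in cKO replicate 3 (3.69 against 3.63%) and in WT replicate 3 (3.45 against 3.39%). It did not hold for each cluster, since chromosome 15 was above the genome in 2 of the 6 libraries and chromosome 16 in 0. Whether members differ from all genes, or Krtap from Krt genes, at equal span length was not tested. Near-identical Krtap copies can share reads, and the sources used here do not say how such reads were placed. Values of single Krtap genes are therefore uncertain.

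Krtap3-1 had the highest mean on chromosome 11. Its span was covered over 24.0, 24.7 and 0% in cKO and over 4.72, 21.5 and 11.9% in WT. Coverage was thus high in 3 libraries and absent in 1, across both genotypes. Krtap4-1 followed with 15.5, 0 and 8.48% in cKO and 26.2, 21.8 and 7.37% in WT. On chromosome 15 the highest were Krt88, with 6.17, 16.2 and 19.7% in cKO and 8.75, 6.17 and 10.1% in WT, and the hair keratins Krt81 and Krt86, with means over the 6 libraries of 9.01% and 8.49%. On chromosome 16 they were Krtap6-3, Krtap21-1 and Krtap6-2, with means of 5.97, 4.998 and 4.97%; Krtap6-3 had 7.20, 0 and 18.1% in cKO and 0, 5.77 and 4.76% in WT.

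Krtap5-3 on chromosome 7, named after its values were seen, was covered over 22.5, 30.5 and 14.5% in cKO and over 29.0, 14.0 and 0% in WT. It held the 1 of 1459 keratin windows of 1 kb that was covered over 500 bp or more in 5 of 6 libraries (chr7:142204001-142205000). The missing library was again WT replicate 3. The share of all windows covered in 5 of 6 libraries was not computed. No keratin window was covered in all 6, against 0.00695% of all windows, so a count of 0 is near what the genome shows.

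**Figure D4:**
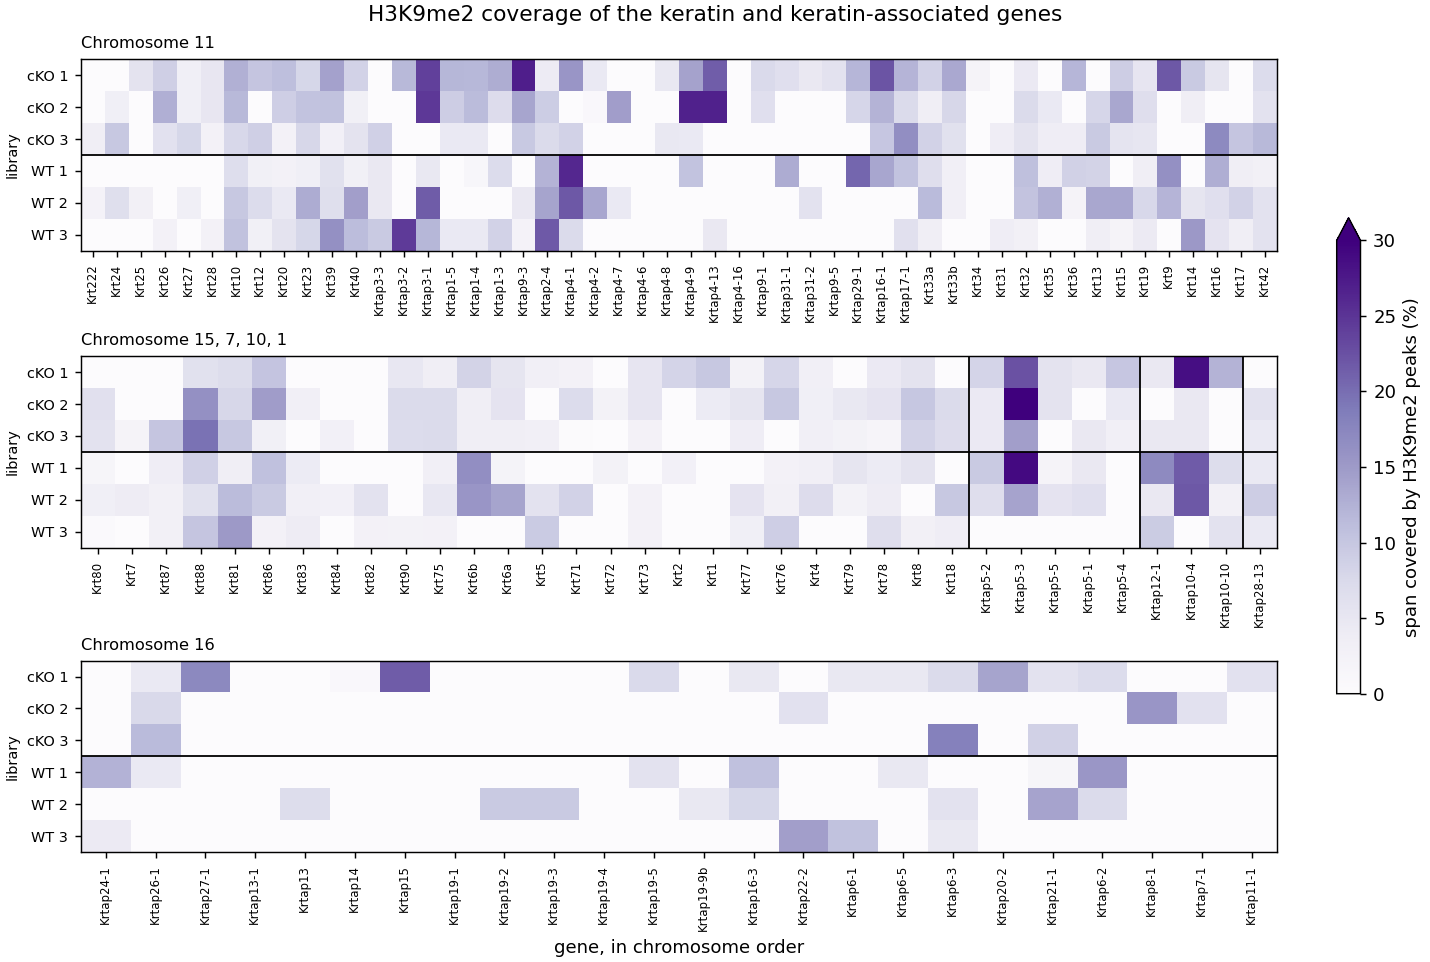
Covered percent of each of the 109 gene spans (columns, in chromosome order) in each library (rows, cKO above the line, WT below it), with darker colour for higher coverage. On chromosome 11 most cells are filled, but the stretch from Krtap4-2 to Krtap9-5 is mostly empty, and on chromosome 16 most Krtap cells are empty.

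Between the genotypes, no gene passed the test. Of the 109 genes, 95 had a mean coverage of 1% or more over the 6 libraries and were tested with limma within the fit of 19016 genes. None had an adjusted p under 0.05, against 0.0% of all genes tested, and the lowest adjusted p of a member was 0.519. At an unadjusted p under 0.05, 10 members were higher and 1 was lower in cKO, against 7.43% and 0.941% of all genes. The mean was higher in cKO for 52 of 95 members (54.7%), against 71.1% of all genes, and the median difference was 0.474 points for members and 1.26 points for all genes tested.

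These counts and medians rest on single libraries. At an unadjusted limma p under 0.05, 5 members were higher and 3 lower without WT replicate 2, 6 higher and 4 lower without WT replicate 1 or WT replicate 3, 6 higher and 2 lower without cKO replicate 2, and 13 higher and 2 lower without cKO replicate 3. With the stronger 50% of each list, 3 were higher and none lower, and with equal-length lists 6 higher and 2 lower. The members' median was 0 without cKO replicate 1, against 1.114 for all genes, and -0.36 with equal-length lists, against 0.39. It was above that of all genes without cKO replicate 2 (0.95 against 0.89), WT replicate 1 (1.09 against 1.03) or WT replicate 2 (1.83 against 1.65), so the order of the medians turned.

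The groups did not overlap for 6 members, 5 higher in cKO, against 13.0% of all genes, and 1 lower, against 1.34%. Krt26, a type I keratin of the inner root sheath of the hair follicle, was covered over 8.91, 12.7 and 6.09% in cKO and over 0, 0 and 2.57% in WT. The mean was 9.24 ± 3.33% in cKO and 0.855 ± 1.48% in WT (SD, n = 3 each; limma adjusted p = 0.519). It had peaks in 1 of 3 WT libraries and in all cKO libraries. With lists cut to equal length, the difference of 8.38 points of cKO minus WT came down to 1.17 points (limma adjusted p = 1.0).

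Krtap9-3 showed the largest of these differences: 27.0, 13.8 and 9.63% in cKO and 0, 4.65 and 2.29% in WT (limma adjusted p = 0.530). It lies by the 1 keratin window of 1 kb covered in all 3 cKO and 0 WT libraries (chr11:99601001-99602000), against 0.058% of all windows. No keratin window was covered in all WT and 0 cKO libraries, against 0.0374% of all windows, so both counts are near what the genome shows.

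The hair keratin Krt33b had 13.4, 7.79 and 6.16% in cKO and 3.08, 3.08 and 0% in WT. Krt90 had 4.86, 7.28 and 7.14% in cKO and 0, 0 and 2.43% in WT. Krtap5-4 had 10.05, 4.54 and 3.14% in cKO and no peak in WT. The groups of all 3 genes were apart, with limma adjusted p between 0.519 and 0.543.

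Krtap2-4 went the other way, with 4.06, 9.25 and 7.24% in cKO and 12.3, 13.9 and 21.8% in WT. The mean was 6.85 ± 2.62% in cKO and 15.98 ± 5.10% in WT (SD, n = 3 each; limma adjusted p = 0.568). Every library had a peak in its span, and the lowest WT value was above the highest cKO value.

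By role, 2 groups of 4 keratins each did not overlap between the genotypes in unscaled coverage. Both were singled out after their values were seen. Of all genes tested singly, 13.0% did not overlap, with cKO higher. For the type I keratins of the inner root sheath, the merged spans of Krt25, Krt26, Krt27 and Krt28 were covered over 5.70, 6.07 and 4.16% in cKO and over 0, 1.53 and 1.53% in WT. The mean was higher in cKO for all 4 genes, 2 of them at an unadjusted limma p under 0.05 (Krt26 and Krt28) and none after adjustment. The spans of Krt25, Krt26 and Krt27 overlap in a row, while that of Krt28 lies apart from them.

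The other group, Krt42, Krt88, Krt90 and Krt222, which fell in none of the other roles, had 4.28, 6.81 and 9.79% in cKO and 2.55, 3.32 and 4.17% in WT. The lowest cKO value and the highest WT value lay close together. The first, in cKO replicate 1, was below that library's genome-wide 5.36%. The second, in WT replicate 3, was above its genome-wide 3.39%. Relative to genome-wide coverage, the groups therefore overlapped.

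The epithelial and hair keratins overlapped between the genotypes, and so did the type II keratins of the inner root sheath and companion layer. These last were covered over 2.90, 5.75 and 2.65% in cKO and over 1.51, 4.13 and 1.36% in WT. The 13 type I epithelial keratins had 6.81 ± 0.606% in cKO and 6.27 ± 2.45% in WT, and the 13 type II ones had 3.70 ± 0.961% in cKO and 3.45 ± 0.976% in WT (SD, n = 3 each). The hair keratins had 5.61 ± 1.70% in cKO and 5.65 ± 0.727% in WT for type I, and 3.74 ± 0.826% in cKO and 4.70 ± 1.28% in WT for type II.

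The genotypes overlapped for the chains of the best known pairs. In the basal epidermal pair, Krt5 had 3.16, 0 and 3.16% in cKO and 0, 5.78 and 9.47% in WT, and Krt14 had 9.53, 3.48 and 0% in cKO and 0, 5.28 and 15.2% in WT. In the pair of the upper epidermis, Krt1 had 9.76, 4.14 and 0% in cKO and no peak in WT, while Krt10 was covered in all libraries, with 12.7, 11.6 and 7.70% in cKO and 6.72, 9.80 and 10.6% in WT. In the pair of simple epithelia, Krt8 had 5.67, 9.93 and 8.51% in cKO and 5.67, 0 and 2.84% in WT, and Krt18, its neighbour, had 0, 7.24 and 6.92% in cKO and 0, 9.83 and 3.62% in WT. The limma adjusted p of these 6 genes ran from 0.568 for Krt1 and Krt8 to 0.993 for Krt18.

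Krt15, a keratin of basal and hair follicle stem cells, averaged 9.34 ± 4.06% in cKO and 5.18 ± 7.39% in WT, and Krt20, known from intestine, averaged 7.50 ± 4.42% in cKO and 4.25 ± 1.61% in WT (SD, n = 3 each). Krt19, another simple keratin, was the steadiest of these, with 5.64 ± 0.848% in cKO and 5.09 ± 2.30% in WT. Krt17 had 3.37 ± 5.84% in cKO and 5.09 ± 2.98% in WT. Krt7 and Krt222 had a mean under 1% over the 6 libraries and were not tested.

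Over 1 Mb windows, each divided by its library's genome-wide coverage, none of the 9 windows holding a member passed a limma adjusted p of 0.05, against 3.75% of 2561 windows higher and 10.7% lower in cKO. The nearest was chr11:99000001-100000000, with 35 members, at 1.15 ± 0.163 times the genome in cKO and 0.838 ± 0.116 times in WT (SD, n = 3 each; limma adjusted p = 0.159), and no other of the 9 windows had an unadjusted p under 0.05. Its values were 1.13, 1.32 and 0.992 in cKO and 0.705, 0.899 and 0.911 in WT. Each cKO value was above each WT value. The same held for chr1:83000001-84000000, with 0.940 to 1.14 in cKO and 0.672 to 0.906 in WT. It also held for chr16:88000001-89000000, with 0.686 to 0.882 in cKO and 0.532 to 0.668 in WT. The share of all windows that were apart in this way is not given here. The window after that on chromosome 11, with the other 15 members, had 0.754 in both genotypes.

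Few member spans held an ATAC peak, and no Krtap span held one. An ATAC peak touched the span of 6 of 109 members (5.50%) in tumour Treg, against 59.9% of all genes, and of 2 (1.83%) in spleen Treg, against 47.1%. All touched genes were keratins: Krt78 with 3 peaks, Krt80 and Krt222 with 2 each, and Krt10, Krt83 and Krt88 with 1 each in tumour, and Krt78 and Krt222 with 1 each in spleen. None of the 56 Krtap genes was touched in either tissue, which allows a share of up to 6.38% (exact Clopper-Pearson, 95%). With 1 library in each tissue there is no test. Such intervals and limits cover counting error only, and they count clustered genes as independent.

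Since keratin spans differ in length from other genes, density is given too. The merged Krt spans, 0.864 Mb, held 10 tumour peaks or 11.6 per Mb, close to the 10.1 per Mb of the genome, and 2 spleen peaks or 2.31 per Mb, against 4.804 per Mb. The merged Krtap spans, 0.540 Mb, held none, and a count of 0 there allows up to 5.56 per Mb (3 peaks). That limit is below the genome's density in tumour Treg but above it in spleen Treg, where a lack could not be detected at this depth. None of the 87 member promoters was touched by an ATAC peak, which allows up to 4.15%, against 40.4% of all promoters in tumour and 32.9% in spleen.

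**Figure D5:**
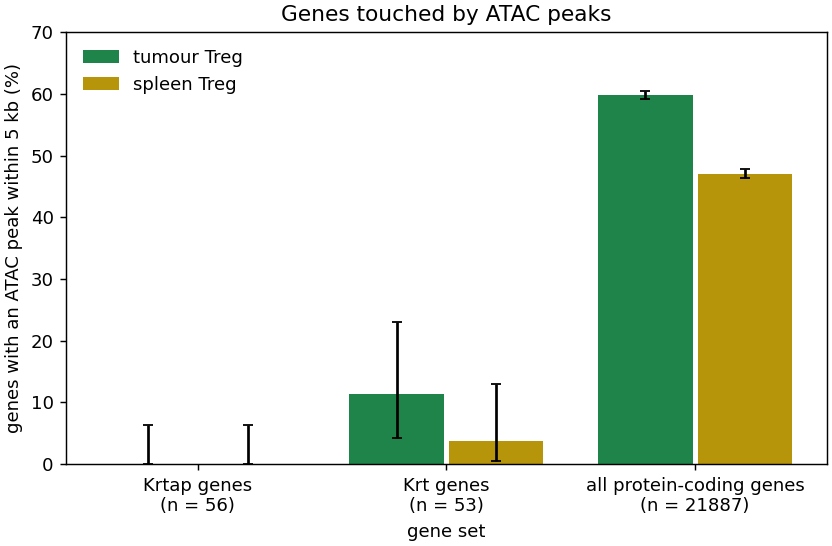
Percent of genes with an ATAC peak within 5 kb in tumour and spleen Treg (1 library each), for Krtap genes, Krt genes and all protein-coding genes, with exact 95% intervals for counting error. Krtap genes are at 0 in both tissues, keratins at 11.3% in tumour and 3.77% in spleen, and all genes at 59.9% in tumour and 47.1% in spleen.

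The strongest keratin ATAC peak lay in the hair keratin Krt83 (chr15:101485705-101486027), in tumour only, with a score of 60, at a percentile of 80.5 in the tumour list. The peaks in Krt78 had scores of 34, 33 and 23 in tumour, and the weakest of them overlapped the 1 spleen peak there, with a score of 15. The peak inside Krt222 had a score of 33 in tumour (chr11:99238505-99238827) and 26 in spleen, and the other Krt222 peak lay in the neighbouring gene Smarce1. The peak in Krt10, with a score of 11, lay 3278 bases from its listed start. Of the 10 tumour peaks, 6 were touched by no H3K9me2 peak of any library.

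Few member promoters were touched by H3K9me2. Of 87 promoters, 1, 6 and 3 were touched in cKO replicates 1, 2 and 3 and 3, 6 and 4 in WT replicates 1, 2 and 3, or 1.15 to 6.90%. Over all promoters the share was 5.09, 6.10 and 4.73% in cKO and 3.43, 5.85 and 4.76% in WT. The count of 1 in cKO replicate 1 has an exact Clopper-Pearson 95% interval of 0.029 to 6.24%. The intervals of all 6 libraries hold the share of all promoters in the same library. These intervals count promoters as independent, which clustered genes are not, so they cannot decide whether members differ from all promoters.

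Genes that work with keratins were counted for comparison. The epidermal differentiation complex, a cluster of cornified envelope genes on chromosome 3, had 31 of 50 genes tested, 15 with a higher and 16 with a lower mean in cKO, and a median difference of -0.13 points. Over all genes tested, 71.1% were higher, with a median of 1.26 points. Of 18 tested regulators of epidermis and hair follicle, 16 were higher in cKO, with a median of 2.501 points, and of 19 adhesion and envelope partners 15 were higher, with a median of 1.53 points. None of the 3 lists had a gene with a limma adjusted p under 0.05, against 0.0% of all genes. At an unadjusted limma p under 0.05, 2 genes of the epidermal differentiation complex, 4 regulators and 1 partner were higher in cKO and none was lower, against 7.43% higher and 0.941% lower of all genes.

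Hoxc13, a regulator of hair keratin genes, was covered over 9.10, 3.57 and 5.65% in cKO and had no peak in WT, and Msx2, another hair follicle regulator, had 10.3, 7.58 and 10.5% in cKO and 0, 3.14 and 3.14% in WT. Both had a limma adjusted p of 0.519. In the epidermal differentiation complex, Pglyrp4, a peptidoglycan recognition protein, had 3.29, 3.49 and 7.05% in cKO and no peak in WT, and Hrnr, a filaggrin-like protein, had 13.5, 9.64 and 8.83% in cKO and 0, 0 and 8.15% in WT. Among the partners, Itgb4, an integrin of hemidesmosomes, had 2.88 ± 0.492% in cKO and 0.381 ± 0.661% in WT, and Ppl (periplakin) had 2.45 ± 0.604% in cKO and 4.78 ± 1.06% in WT (SD, n = 3 each).

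By ATAC-seq, 1 of 50 genes of the epidermal differentiation complex, Tchh, was touched in tumour and none in spleen, against 59.9% of all genes in tumour and 47.1% in spleen. The regulators were touched in 9 of 20 genes in tumour and 7 in spleen, and the partners in 11 of 19 genes in tumour and 5 in spleen. The 7 regulators touched in both tissues were Foxn1, Lef1, Gata3, Klf4, Tfap2a, Prdm1 and Vdr. Some of them, such as Gata3 and Lef1, also act in T cells. Hoxc13, Msx2 and Trp63 were among those not touched.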

How the data were processed

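The labels call the H3K9me2 assay CUT&RUN, while their protocol names a CUT&Tag kit; the ATAC libraries were made by a service company. Bowtie2 2.4.2, Trim Galore 0.6.6, HOMER, SAMtools 1.11, Picard and deepTools, with the build mm10, are listed in the submitters' processing notes. Per the file headers, HOMER findPeaks was run on each library alone, without input and without pooling: histone style with a 500 bp peak size and a tag threshold of 5 for H3K9me2, factor style for ATAC.

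Peak signal (tags) was scaled by the authors to 10000000 tags, per the file headers, and the score counts tags of the own library. The fold over the local region (a ratio) and its p-value are the authors' own values for each peak. The deposited ATAC lists also give a focus ratio, a fraction, and the deposited H3K9me2 lists give region sizes; neither was used. The deposited H3K9me2 lists are shorter than their headers state, and each peak kept has a local fold of 2.01 or more and a p-value of 0.0496 or less. Covered length therefore records local enrichment, and broad domains without local contrast can go unseen.

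Peaks were merged within a library, and the percent of each span covered was computed with Python 3.11.15. All 21887 protein-coding genes were placed by a RefSeq table of the same build, and 19016 with a mean of 1% or more were fitted in R 4.3.3 with limma 3.58.1 (trended empirical Bayes on genotype alone, Benjamini-Hochberg adjustment over all genes tested). Windows of 1 Mb were fitted in the same way after scaling. Cluster values were compared with an exact two-sided permutation test over the 6 libraries. The fits were checked on simulated data. Members, lists, tests and alternatives were chosen with earlier results of these data known. The genes named were up to 5 in each direction with the smallest p among genes with no overlap of the groups, the 3 with the highest mean in each cluster of 10 or more, those touched by ATAC peaks, a list of keratins chosen by role, and up to 2 genes from each related list. Same-numbered libraries of the genotypes were checked for shared deviations, and they were not treated as pairs.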

Additional observations from a re-analysis of the deposited data

How the results depend on the processing

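No keratin gene passed an adjusted p of 0.05 under any alternative run (equal-length lists, the stronger 50% of each list, scaling to the genome, the arcsine scale, no filter on low means, spans with 0 kb, the replicate block, and each library left out). Correlations of deviations over genes were 0.0756, 0.00499 and 0.0260 for same-numbered libraries of the genotypes. For differently numbered libraries they ran from -0.0539 to 0.0264. Values this small cannot decide whether the replicate numbers pair the libraries. With the replicate block, 1 keratin window of 1 Mb passed (chr11:99000001-100000000, limma adjusted p = 0.0477), 1 of 9 beside 664 of all 2561 windows (25.9%), and cluster p-values ran from 0.25, the smallest that a sign-flip of 3 pairs gives, to 0.75. The chromosome 11 difference kept its sign under every alternative run. The others did not, in points of cKO minus WT. Chromosome 15 turned to -0.471 with equal-length lists, to -0.287 without cKO replicate 2 and to -0.0554 without WT replicate 1, and chromosome 16 to -0.560 without cKO replicate 1. Scaled to the genome they were -0.0547 and -0.00361 times its coverage. With 0 kb spans chromosome 7 turned to -1.70, and chromosomes 10 and 16 were at 0, since no gene body there is covered. Over the whole stretch chromosome 10 turned to 0.269. With single libraries left out, the difference ranged from 0.634 to 2.30 on chromosome 11, -0.287 to 0.957 on chromosome 15, -0.560 to 1.04 on chromosome 16, 0.137 to 5.09 on chromosome 7 and -7.58 to -1.10 on chromosome 10. Keratin 1 kb windows covered in cKO only numbered 0 at 1 bp or more, against 0.211% of all windows, and 1 to 7 with a library left out. There were 7 without cKO replicate 1 (0.480%, against 0.267% of all windows) and 6 without cKO replicate 3 (0.411%, against 0.387%). Those covered in WT only numbered 3 at 1 bp or more (0.206%, against 0.131%) and 0 to 3 with a library left out. The 3 without WT replicate 1 or 2 were 0.206%, against 0.208 and 0.217% of all windows. Leaving out a library of a group also relaxes the rule for that group. With the same number of top-scoring ATAC peaks from both lists, 4 tumour peaks were left. Apart from the constructions named, the cause was not tested.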
